A study of Mus musculus with 8 samples.

Results

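The genes described here are 28 transcripts of Schwann cells, of satellite glia and of myelin, picked by name from the 78317 genes of a table of the mouse cochlea. All 28 names were found, each on 1 row. They comprise 13 proteins and enzymes of the myelin sheath, 4 transcription factors, 6 ligands and receptors, 3 adhesion proteins and 2 glial marker proteins. The tissue is the basilar membrane, the strip of the cochlea with the organ of Corti and the nerve fibres that run to it, taken from mice at postnatal day 6. It was profiled in 4 libraries titled hete, whose genotype tag is WT, and 4 titled homo, whose tag is Dnajc17 cKO, a conditional knockout of a J-domain protein. Nothing in the labels gives the strain, the Cre or the cells it acts in, the deleted part of the gene, pooling of animals, or whether hete mice carry a mutant allele. Nor do they say that the 4 libraries of a group come from separate animals, so a p-value reflects only how these libraries vary, which may be technical.

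Myelin is the stack of glial membrane that insulates an axon. In peripheral nerve, Schwann cells make it. They descend from the neural crest under the transcription factor Sox10, read neuregulin on the axon through the receptor pair Erbb2 and Erbb3, pass through a promyelinating state marked by Pou3f1, and then switch on Egr2, which drives the genes of the sheath. In the cochlea, Schwann cells wrap the fibres of spiral ganglion neurons and satellite glia wrap their cell bodies, while myelin in the central stretch of the auditory nerve is made by oligodendrocytes. Several of the 28 genes are also made by other cells: Sox10 and S100b by epithelial cells of the cochlear duct, Ednrb, Erbb3 and Sox10 by melanocytes of the stria vascularis, L1cam and Ncam1 by neurons, and Mbp, Mag, Cnp, Mal, Pllp, Fa2h and Ugt8a by oligodendrocytes as well as by Schwann cells.

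Levels are in TPM, or transcripts per 1000000, which corrects for the length of a gene's transcripts, so that genes can be set side by side. Library values are always listed in the order of replicates 1 to 4. TPM keeps no record of sequencing depth, which is unknown here. Between 28159 and 28969 genes lay above 0 in a library. Dnajc17 itself was not lower in the libraries titled homo, at 24.8 ± 1.91 TPM in hete and 26.5 ± 5.83 TPM in homo (SD, n = 4 each), with overlapping groups and its highest value, 31.1 TPM, in homo. The labels do not say which part of the gene is removed, and a value for the whole gene in mixed tissue does not check the labels. Markers of the labelled tissue were present: the 7 listed hair cell markers and the 6 listed supporting cell markers were above 0 in all 8 libraries. The hair cell markers summed to 67.8 to 77.6 TPM in hete and 60.9 to 72.3 TPM in homo. Markers of other parts were present too. Those of melanocytes and stria intermediate cells summed to 844 to 1235 TPM in hete and 837 to 1064 TPM in homo. Those of bone and cartilage summed to 2572 to 3393 TPM in hete and 2571 to 3169 TPM in homo. Such sums over different genes do not give shares of cells. The supporting cell markers, which belong to epithelium that also makes Sox10 and S100b, summed to 4462 to 4843 TPM in hete and 5312 to 5697 TPM in homo, without overlap. Tectb, a gene of the tectorial membrane singled out after its values were seen, made up 84.1% to 90.0% of that sum. Of the 6 markers, 3 (Tectb, Tecta and Otog) did not overlap, with homo higher, while the other 3 overlapped. Among all 17811 tested genes, 2.58% did not overlap with homo higher. The part of the supporting cell markers in the values below was not tested.

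The levels of the members spanned a wide range, also within a role. Of the transcription factors, Sox10 was among the highest members, while Egr2, Pou3f1 and Foxd3 stood at 6.58, 3.98 and 3.12 TPM. Gldn, a protein of nodes, was also among the lowest members. S100b, a calcium-binding protein, was highest at 568 ± 63.6 TPM (SD, n = 8). Pmp22, a tetraspan protein of compact myelin, followed at 340 ± 88.5 TPM, and Mbp, the basic protein that holds the cytoplasmic faces of compact myelin together, at 282 ± 96.4 TPM (SD, n = 8 each). Pmp22 and Mbp differed by less than the spread of Mbp over libraries. Fabp7, a fatty acid binding protein of satellite glia and other glia, stood at 202 ± 30.8 TPM and Sox10 at 138 ± 13.7 TPM (SD, n = 8 each). Mal, a lipid raft protein of myelin, Cnp, an enzyme of the cytoplasmic channels of the sheath, and Ednrb, a receptor for endothelin, formed a level of their own at 85.2 ± 7.17, 83.7 ± 19.7 and 83.5 ± 10.4 TPM, and their order was within their spread. Prx, the scaffold protein periaxin, Erbb3, Erbb2, Ncmap, a protein of non-compact myelin, Pllp, a myelin proteolipid, Cldn19, the claudin that seals the folds of the sheath, Mag, an adhesion protein facing the axon, and Ncam1 had means from 26.7 down to 12.6 TPM. The remaining 12 members lay under 10 TPM on average. Gfra3, a receptor subunit for artemin, was the lowest at 0.411 ± 0.171 TPM (SD, n = 8) and was the 1 member below the mean of 1 TPM that a gene needed to be tested.

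Windows of 250 bases that end at a RefSeq start site (build GRCm38.p6) were held for 18 of the 28 members, 30 windows in all. They were read as a description only. These windows are reference sequence on another build than the GRCm39 named for the expression values, and nothing in the expression table measures these sites. Letters searched on both strands were ACAAAG and ACAATG, cores bound by SOX factors, GTGGGCG, a core bound by EGR factors, and TATAAA. No motif here overlapped another. ACAAAG was found in 3 of the 30 windows, those of Cnp and Mag, and in 16.5% of all 32851 windows of this length. GTGGGCG was also found in 3 of 30, those of Cldn19 and Egr2, and in 7.02% of all windows. Windows of Mag and of Cldn19 overlap, so they are not independent. ACAATG and TATAAA, held by 10.7% and 12.4% of all windows, were in no window of a member. A match of letters is no evidence of binding. The 4 members with a match are shown 5′ to 3′ with the motif in capitals, 1 window each. Mag has 3 windows, of which 2 that overlap hold the motif, Cldn19 has 2 that both hold it, and Egr2 has 5, of which 1 holds it. The bases after the start sites shown for Mag and Egr2 were not found near the beginning of a GENCODE M21 transcript.
Cnp, chr11:100574689-100574938, plus strand: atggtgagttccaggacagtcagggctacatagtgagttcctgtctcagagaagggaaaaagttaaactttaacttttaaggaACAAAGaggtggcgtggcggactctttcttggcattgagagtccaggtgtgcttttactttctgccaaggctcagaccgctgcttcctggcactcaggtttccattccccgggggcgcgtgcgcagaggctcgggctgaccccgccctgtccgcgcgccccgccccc
Mag, chr7:30914864-30915113, minus strand: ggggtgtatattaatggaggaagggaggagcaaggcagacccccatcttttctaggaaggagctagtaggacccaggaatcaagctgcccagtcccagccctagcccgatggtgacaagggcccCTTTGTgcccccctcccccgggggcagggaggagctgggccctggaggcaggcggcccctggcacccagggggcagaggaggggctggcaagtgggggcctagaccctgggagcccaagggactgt
Cldn19, chr4:119255191-119255440, plus strand: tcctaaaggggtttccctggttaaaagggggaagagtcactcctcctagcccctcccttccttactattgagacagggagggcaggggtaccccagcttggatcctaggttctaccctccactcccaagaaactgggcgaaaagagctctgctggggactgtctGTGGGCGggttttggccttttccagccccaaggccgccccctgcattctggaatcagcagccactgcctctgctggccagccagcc
Egr2, chr10:67535249-67535498, plus strand: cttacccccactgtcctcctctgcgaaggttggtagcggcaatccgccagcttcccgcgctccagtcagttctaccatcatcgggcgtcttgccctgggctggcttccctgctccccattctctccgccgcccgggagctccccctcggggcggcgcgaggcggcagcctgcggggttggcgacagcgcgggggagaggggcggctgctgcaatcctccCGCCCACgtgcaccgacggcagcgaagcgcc
The motif began 167 bases before the start site for Cnp, 126 for Mag, 86 for Cldn19 and 31 for Egr2. For Mag and Egr2 it lay on the other strand, so the capitals show its reverse complement.

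The members varied widely between libraries of the same genotype. Hete replicate 1 and homo replicate 3 were low: of the 27 tested members, 12 had their lowest value in the first and 10 in the second, 22 in all. Homo replicates 1 and 4 were high, holding the highest value of 7 and 11 members. These libraries were picked out after the values were seen, and the counts are a description. The same count over all tested genes was not made, so how far these libraries are low or high for other genes is not shown. The 13 sheath members summed to 612, 1099, 945 and 848 TPM across hete and to 1244, 863, 622 and 1082 TPM across homo. The lowest sums of the 2 genotypes were close to each other, at 612 and 622 TPM. In mixed tissue, fewer glial cells and less RNA per cell cannot be told apart.

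**Figure D1:**
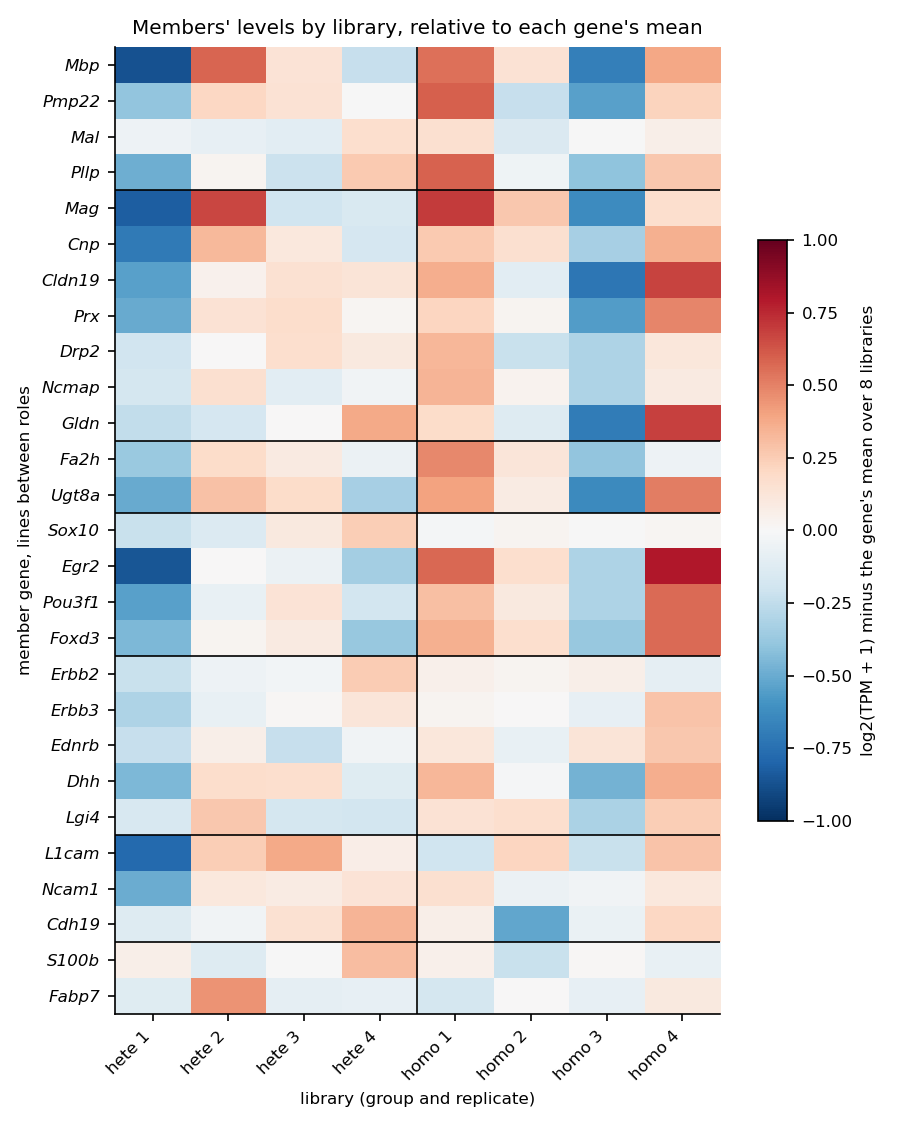
Level of each of the 27 tested members (rows, grouped by role) in each of the 8 libraries (columns), as log2(TPM + 1) minus the gene's mean over the libraries; blue is below and red above that mean. Hete replicate 1 and homo replicate 3 are blue for nearly all sheath genes, while S100b, Sox10, Erbb2 and Mal differ little between libraries.

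The spread was large against that of other genes. The coefficient of variation, the SD divided by the mean TPM, had a median of 20.5% over the 27 tested members in hete and 23.3% in homo, beside 12.6% and 11.2% over all 17811 tested genes. It was above the median of all genes for 23 members in hete and for 20 in homo. In hete it ran from 9.27% for Mal to 47.3% for Mag. In homo it ran from 1.57% for Sox10 to 48.2% for Gldn, the gliomedin that gathers sodium channels at nodes. Of the 13 sheath members, 10 had a highest library at least 2-fold above the lowest, as did 6 of the 14 other tested members.

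The low libraries for myelin were also low for the summed markers of the neurons whose fibres are wrapped. The 13 listed markers of spiral ganglion neurons summed to 432, 671, 657 and 594 TPM across hete and to 616, 611, 497 and 817 TPM across homo. Hete replicate 1 and homo replicate 3 were the lowest of their groups in both sums. Not every neuron marker followed the sum. Of Tubb3, Nefl, Nefm, Nefh and Snap25, 4 of 5 had their lowest value in hete replicate 1. Syt1 had 22.4 TPM there against 21.9 to 24.0 TPM in the other hete libraries, and Ntrk2 47.1 against 41.8 to 51.2 TPM. Gata3 gave the largest part of the sum, 122 of 432 TPM in hete replicate 1. Which cells made these transcripts was not tested. The highest homo library differed, being replicate 4 for the neuron sum and replicate 1 for the sheath sum. Between genotypes, in the comparison set out below, 11 of the 13 neuron markers had a log2 fold change (homo against hete) above 0, with a median of 0.10. Of all tested genes, 56.3% lay above 0. None of the 13 passed the test. An unadjusted p under 0.05 (limma-trend) was found for 3 of them, beside 6.05% of all tested genes, and 1 did not overlap, beside 3.99%. With the level of these 13 markers as a covariate, an alternative added after the data were seen, the members' median log2 fold change was 0.02 and 16 of 27 lay above 0, in place of the 0.09 and 23 given below. The median over all tested genes was 0.02 in both fits.

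**Figure D2:**
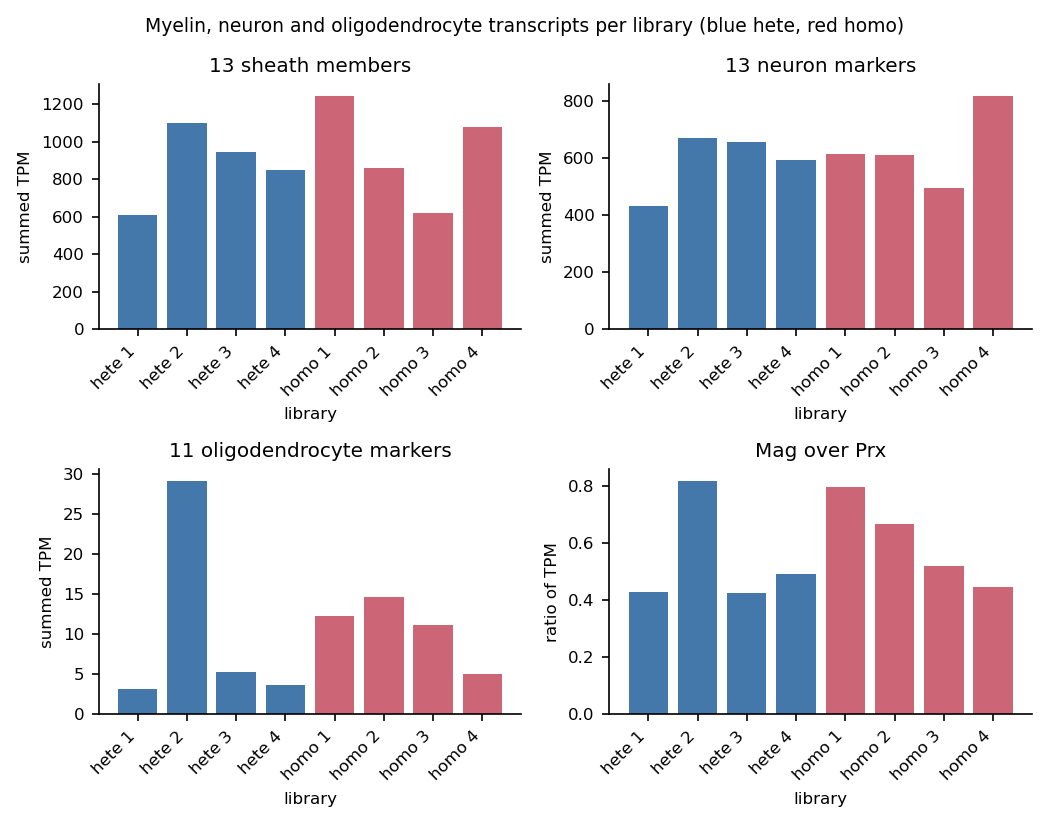
Bars give, for each library, the summed TPM of the 13 sheath members, of 13 neuron markers and of 11 oligodendrocyte markers, and the TPM of Mag divided by that of Prx (blue hete, red homo; axes start at 0). Hete replicate 1 and homo replicate 3 are lowest of their group in the first 2 panels, and hete replicate 2 is highest in the other 2, at 29.1 TPM and a ratio of 0.818.

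Homo was compared with hete to ask whether glial and myelin transcripts differ between libraries labelled Dnajc17 cKO and WT. None of the 27 tested members passed the test in either direction (limma-trend, Benjamini-Hochberg adjusted p under 0.05), where 2 of 17811 tested genes did, 0.0112%, 1 higher (0.00561%) and 1 lower (0.00561%). At an unadjusted p under 0.05 there were 2 members, Egr2 and Ednrb, and 6.05% of all genes. The groups overlapped for every tested member, whereas they did not for 3.99% of all genes, 2.58% with homo higher. The log2 fold change of homo against hete, computed from log2(TPM + 1), was above 0 for 23 of 27 members, beside 56.3% of all genes, with a median of 0.09 beside 0.02. That count rested on 1 library: without hete replicate 1 it was 12 of 27 and the median was -0.03, beside -0.003 over all genes tested in that fit. The median was 0.02 without homo replicate 1, 0.04 without homo replicate 4, 0.14 without hete replicate 2 or hete replicate 3, and 0.22 without homo replicate 3.

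**Figure D3:**
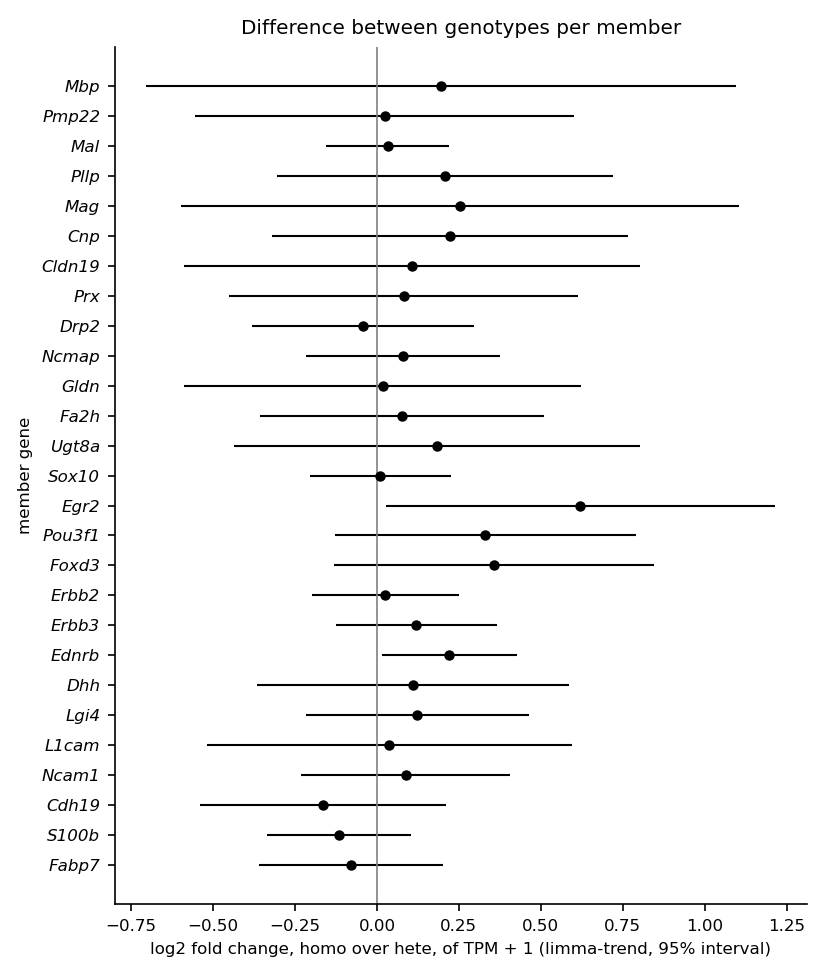
Points give the log2 fold change of TPM + 1, homo over hete, for each of the 27 tested members, and bars its 95% interval from limma-trend without adjustment for the number of genes. Intervals of Egr2 and Ednrb lie above 0 and all others cross it; Mbp and Mag have the widest among the sheath genes.

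Among proteins of compact myelin, Mbp had 144, 397, 292 and 226 TPM in hete and 389, 293, 165 and 347 TPM across homo. The groups overlapped almost fully, with the lowest and the highest value both in hete. The estimate was 0.20 on the log2 scale with an SE of 0.38, a 95% interval of -0.70 to 1.10 and a limma-trend adjusted p = 0.962. Pmp22 had 250.4, 382, 365 and 330.1 TPM in hete and 501, 281, 226 and 386 TPM in homo, so that homo held both the highest and the lowest value. Here the estimate was 0.02 with an SE of 0.25 (limma-trend adjusted p = 0.997). Mal and Pllp both belong to the MARVEL family of 4-pass membrane proteins but spread differently, Mal from 76.8 to 95.7 TPM over the 8 libraries and Pllp from 12.3 to 27.1 TPM. Their log2 fold changes were 0.03 (SE 0.08) and 0.21 (SE 0.23).

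In non-compact myelin and at the axonal and outer surfaces, 6 of 7 members had a value above 0 and Drp2, a dystrophin-related partner of Prx, had -0.04 (SE 0.15). Mag had 7.73, 23.6, 12.5 and 12.9 TPM in hete and 24.1, 17.6, 8.97 and 16.4 TPM in homo. Hete replicate 2 and homo replicate 1 stood well above the rest and the groups overlapped (0.25, SE 0.37; limma-trend adjusted p = 0.949). Cnp had 49.4, 102, 87.7 and 72.4 TPM in hete and 98.0, 91.3, 64.3 and 104 TPM in homo, with the lowest value again in hete replicate 1 (0.22, SE 0.24). Prx, which peripheral glia make and oligodendrocytes do not, had 18.1, 28.8, 29.4 and 26.3 TPM in hete and 30.3, 26.5, 17.3 and 36.8 TPM in homo. It was low in hete replicate 1 and homo replicate 3 and similar in the other hete libraries (0.08, SE 0.23; limma-trend adjusted p = 0.978). Cldn19, Ncmap and Gldn had log2 fold changes of 0.11 (SE 0.30), 0.08 (SE 0.13) and 0.02 (SE 0.27), and all 3 were lowest in homo replicate 3. The enzymes of myelin lipid, Fa2h, which hydroxylates fatty acids, and Ugt8a, which makes galactosylceramide, had 0.08 (SE 0.19) and 0.18 (SE 0.27), both also lowest in homo replicate 3.

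**Figure D4:**
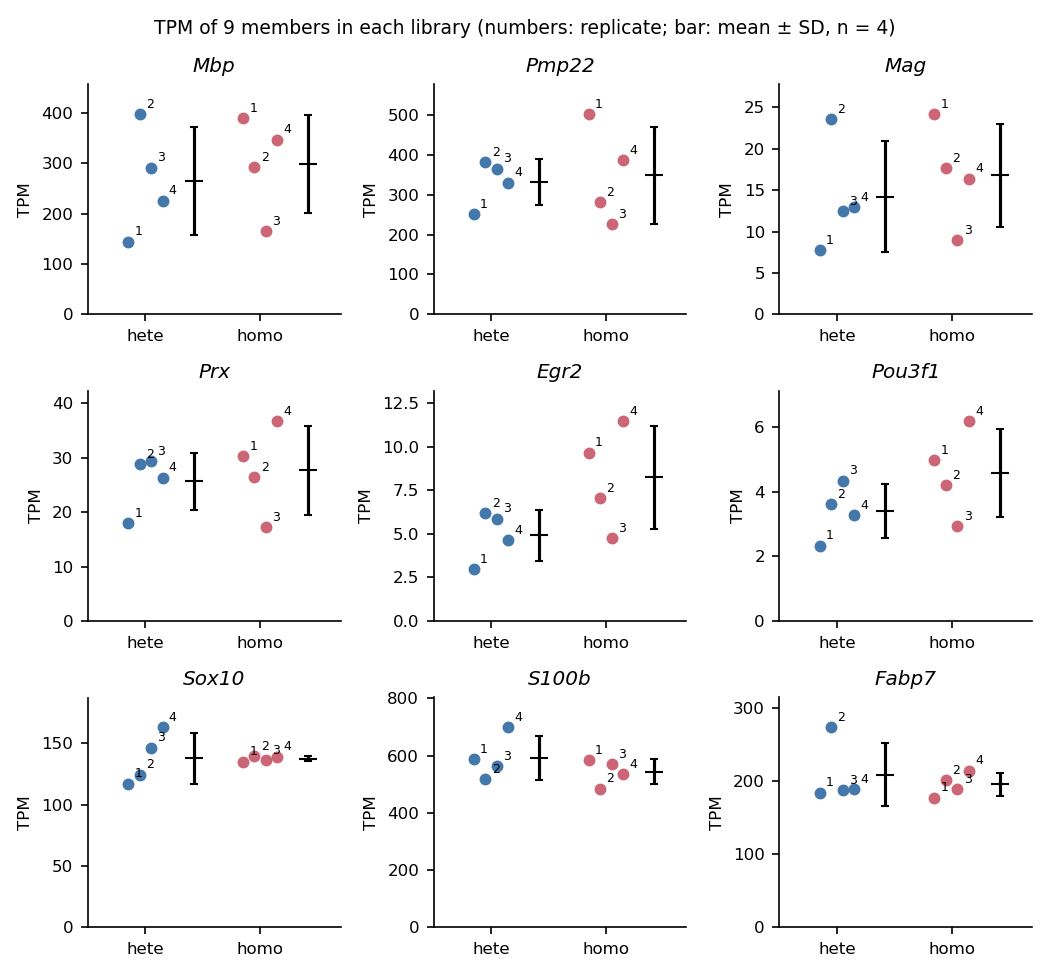
TPM of 9 members in the 4 hete (blue) and 4 homo (red) libraries, with replicate numbers beside the points and the mean ± SD of each group in black (axes start at 0). Values of the 2 groups overlap for all 9 genes; Egr2 runs from 2.96 to 6.18 TPM in hete and from 4.77 to 11.5 TPM in homo, and the 4 Sox10 values of homo lie within 135 to 140 TPM.

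The transcription factors comprised Sox10, with a value near 0, and 3 low-level regulators with the largest log2 fold changes of all members. Egr2 had 2.96, 6.18, 5.88 and 4.65 TPM in hete and 9.67, 7.03, 4.77 and 11.5 TPM in homo. Of the homo values, 3 lay above all hete values, and homo replicate 3 lay among them. The estimate was 0.62 on the log2 scale with an SE of 0.26, a 95% interval of 0.03 to 1.21 and a limma-trend adjusted p = 0.814, and it ran from 0.44 to 0.83 when any library was left out. Foxd3, a factor of neural crest and early glia, had 1.92, 3.07, 3.25 and 2.08 TPM in hete and 4.10, 3.50, 2.07 and 4.93 TPM in homo (0.36, SE 0.22). Pou3f1 had 2.33, 3.62, 4.34 and 3.28 TPM in hete and 4.98, 4.20, 2.93 and 6.19 TPM in homo (0.33, SE 0.21; limma-trend adjusted p = 0.870 for both). Homo replicate 3 fell within the hete range for each of these 3 genes. Sox10 had 117, 124, 146 and 163 TPM in hete and 135, 140, 136 and 139 TPM in homo (0.01, SE 0.10). Its homo values lay inside the hete range and did not follow the sheath genes from library to library.

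Egr2 is also an immediate early gene, induced in many cells by a stimulus. Of 9 other genes of that kind, chosen with their values in view, none passed the test. Egr1 stood at 0.39 (SE 0.15), Egr3 at 0.42 (SE 0.17), Nr4a1 at 0.36 (SE 0.10), Fos at 0.32 (SE 0.15) and Nr4a3 at 0.23, while Dusp1, Ier2 and Junb were near 0, at 0.10, 0.05 and -0.06, and Jun stood at -0.17 (SE 0.11). Nr4a1 had 8.92, 9.39, 10.5 and 7.58 TPM in hete and 12.4, 12.0, 11.8 and 11.4 TPM in homo. The groups did not overlap for Nr4a1, Egr3 and Nr4a3, 3 of the 9, beside the 2.58% of all genes given above. Homo replicate 3, low for Egr2, was the highest library for Egr1 at 16.8 TPM. The part of such a response in the Egr2 value was not tested.

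Set against Prx, a protein of peripheral myelin, the same 3 factors separated the genotypes. The TPM of Egr2 divided by that of Prx was 0.164, 0.214, 0.200 and 0.176 across hete, against 0.319, 0.266, 0.276 and 0.312 across homo. All homo ratios lay above all hete ratios. For Pou3f1 the ratios were 0.124 to 0.147 in hete and 0.159 to 0.170 in homo, and for Foxd3 they were 0.0790 to 0.110 and 0.120 to 0.135. Of the 26 members set against Prx, these 3 did not overlap with homo higher and none did with homo lower, while 0.163% of all tested genes did not overlap with homo higher and 0.545% in either direction. A gene that does not share the spread of Prx has a ratio that varies with Prx, so the 2 shares are not alike in kind. Prx was chosen after the values were seen and no test was made. With the geometric mean of the 13 sheath members in place of Prx, Egr2 alone of the 27 did not overlap (0.165 to 0.227 in hete, 0.275 to 0.364 in homo, where 0.124% of all genes did not overlap with homo higher and 0.674% in either direction), and Pou3f1 and Foxd3 overlapped.

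**Figure D5:**
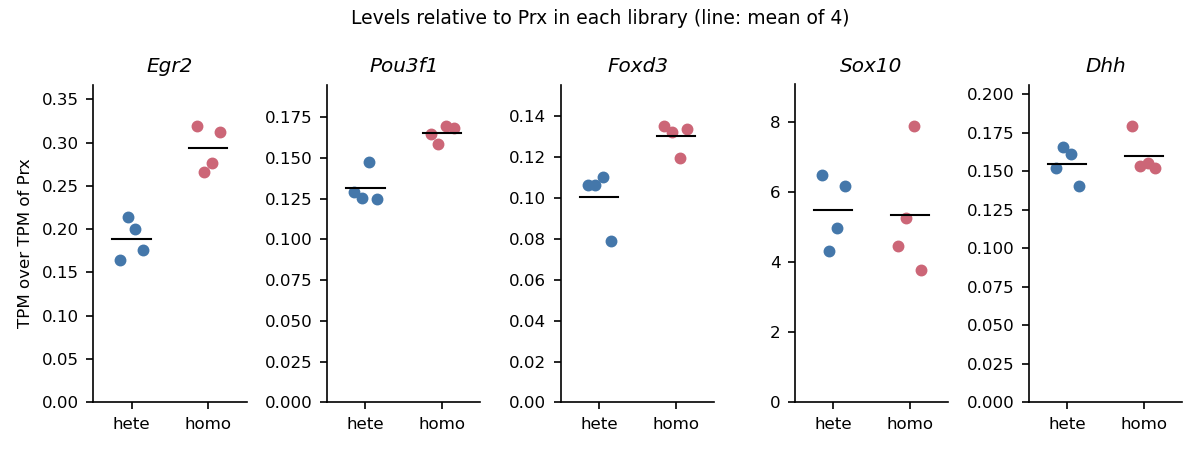
TPM of 5 members divided by the TPM of Prx in the same library, for 4 hete (blue) and 4 homo (red) libraries, with a line at each mean (axes start at 0). Egr2, Pou3f1 and Foxd3 do not overlap between genotypes, at means of 0.189 and 0.293 for Egr2, while Sox10 and Dhh overlap.

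Among ligands and receptors, all 5 tested members had a value above 0 and none passed the test. Ednrb had 70.6, 86.4, 70.5 and 80.8 TPM in hete and 89.7, 78.7, 91.0 and 100.3 TPM in homo. Of its homo values, 3 were above all hete values and homo replicate 2 was not (0.22, SE 0.09; limma-trend adjusted p = 0.802). Of the 7 listed melanocyte markers, 6 were tested, of which 2 had a log2 fold change above 0 and 4 below, with a median of -0.07, and none passed the test. The neuregulin receptors differed little, with Erbb2 at 24.2 ± 3.57 TPM in hete and 24.5 ± 1.20 in homo and Erbb3 at 25.3 ± 3.22 and 27.5 ± 3.28 (SD, n = 4 each). Dhh, the hedgehog ligand that Schwann cells send to the nerve sheath, stood at 3.99 ± 0.97 and 4.45 ± 1.36 TPM and followed the sheath genes, lowest in homo replicate 3 and hete replicate 1. Lgi4, a secreted protein of glia needed for axon sorting, stood at 7.96 ± 1.49 and 8.78 ± 1.58 TPM. Gfra3, which was not tested, had 0.22 to 0.62 TPM in hete and 0.14 to 0.63 TPM in homo.

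Adhesion proteins and glial markers included 3 of the 4 members with values below 0. Cdh19, a cadherin of Schwann cell precursors, had 5.87, 6.31, 7.35 and 8.51 TPM in hete and 6.80, 4.24, 6.15 and 7.65 TPM in homo (log2 fold change -0.16, SE 0.17). Homo replicate 2 was the lowest of the 8, and the groups overlapped. L1cam and Ncam1, adhesion molecules of axons and unmyelinating glia, were lowest in hete replicate 1 at 1.89 and 8.53 TPM, with log2 fold changes of 0.04 (SE 0.25) and 0.09 (SE 0.14). S100b had 588, 517, 562 and 699 TPM in hete and 585, 485, 570 and 536 TPM in homo (-0.12, SE 0.10; limma-trend adjusted p = 0.905). Its high library was hete replicate 4, which was intermediate for the sheath genes. That library was highest for the 7 listed melanocyte markers, at a sum of 1235 TPM against 837 to 1064 TPM in the others. It was also highest for the summed markers of bone and cartilage, at 3393 TPM, and of hair cells, at 77.6 TPM beside 77.3 TPM in hete replicate 3. For the other listed marker sums it was not the highest. Which cells made the S100b of hete replicate 4 was not tested. Fabp7 had 184, 273, 188 and 189 TPM in hete and 177, 201, 188 and 214 TPM in homo (-0.08, SE 0.13). Hete replicate 2 stood alone above the other 7 libraries.

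Hete replicate 2 also stood apart for the summed markers of oligodendrocytes. The 11 listed oligodendrocyte markers, all in the table, summed to 3.17, 29.1, 5.26 and 3.66 TPM across hete and to 12.3, 14.6, 11.1 and 5.03 TPM across homo. The range was thus 3.17 to 29.1 TPM in hete and 5.03 to 14.6 TPM in homo. Mobp, a protein of central myelin named after its values were seen, had 9.79 TPM in hete replicate 2, 1.86 to 3.62 TPM in homo replicates 1 to 3 and 0.26 to 0.56 TPM in the other 4 libraries. Olig2, which defines the lineage, was listed at 0 in hete replicates 1 and 4, at 0.04 TPM in hete replicate 3 and homo replicate 4, and at 2.13 TPM in hete replicate 2. Mog was listed at 0 in hete replicate 3, Olig1 in hete replicate 1, Nkx2-2 in hete replicates 1 and 4 and homo replicate 4, and Nkx6-2 in hete replicates 1 and 4 and homo replicates 3 and 4. So the sum was over 11 TPM in 4 libraries and at most 5.26 TPM in the other 4. Not every marker followed the sum. Myrf had 2.08, 3.30, 3.04 and 2.25 TPM across hete and 3.70, 3.78, 3.58 and 2.97 TPM across homo. It was the largest part of the sum in the 4 low libraries. Opalin, Hapln2, Ermn and Nkx6-2, none above 0.67 TPM, were also highest outside hete replicate 2. Mog, Mobp, Olig1, Olig2, Nkx2-2 and Gpr17 were highest in hete replicate 2.

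Set against Prx, a few genes made by both kinds of myelinating cell had their 4 highest ratios in the 4 libraries with the largest oligodendrocyte sums, a pattern noticed after the values were seen. The TPM of Mag divided by that of Prx was 0.818 in hete replicate 2 and 0.796, 0.667 and 0.519 in homo replicates 1 to 3, and between 0.424 and 0.490 in the other 4 libraries. The same 4 were on top for Cnp, at 3.23 to 3.72 against 2.74 to 2.98, and, by a small margin, for Fa2h, at 0.184 to 0.222 against 0.119 to 0.183. The order within the 4 differed, with Cnp highest in homo replicate 3 and Fa2h in homo replicate 1. This held for 3 of the 26 members set against Prx, beside 0.41% of all tested genes, and for 0 of 27 set against the geometric mean of the sheath members, beside 0.225%. The shares are not alike in kind, since a gene that does not share the spread of the denominator has a ratio that varies with that denominator. No test was made, and the count is not a measure of enrichment. The geometric mean of the sheath members itself includes genes that oligodendrocytes make. On that scale Mag was 0.516 in homo replicate 3 and 0.520 in homo replicate 4. Of the other genes that both cell types make, it did not hold for Mal, Pllp and Ugt8a, nor for Mbp, whose ratio was highest in hete replicate 2 at 13.8 but higher in hete replicate 3, at 9.91, than in homo replicate 3, at 9.53. Homo replicate 4, with Olig2 at 0.04 TPM, had 347 TPM of Mbp and the highest Prx of all libraries. The share of each member's RNA that came from oligodendrocytes was not tested.

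The stage of myelination can be read only as levels at this 1 age. Genes of the finished sheath were on in every library, with Mbp at 144 TPM, Pmp22 at 226 TPM and Prx at 17.3 TPM in the lowest. Pou3f1 was present at the same time, at 2.33 to 6.19 TPM, and Egr2 was above it in 8 of 8 libraries. Ngfr, the neurotrophin receptor that Schwann cells lose as they myelinate and that other cells also make, stood at 5.65 to 12.2 TPM. Mki67, a marker of dividing cells of any type, stood at 3.66 to 5.60 TPM. Pou3f1, Egr2, Ngfr and 12 of the 13 sheath genes were lowest in hete replicate 1 or homo replicate 3, Mal being the exception.

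Genes of the same pathways outside the 28 did not pass the test either. Of 16 other peripheral myelin genes, 15 were in the table and tested. A value above 0 was held by 11 of them, beside 56.3% of all tested genes, and 4 lay below. Their median log2 fold change was 0.03 beside 0.02 over all tested genes. They include Gal3st1, which sulfates galactosylceramide (0.23, SE 0.17), Ndrg1, a protein of Schwann cells (0.16, SE 0.12), and Pmp2, a lipid carrier of peripheral myelin (0.35, SE 0.40). Of 18 regulators of Schwann cell myelination, 16 had a value above 0 and 2 below (median 0.08), beside the same 56.3% of all tested genes above 0. Whether this count rests on 1 library, as that of the members did, was not tested. Itga6, a laminin receptor subunit that epithelia also make, had 67.6, 68.5, 80.6 and 75.8 TPM in hete and 97.5, 86.6, 85.4 and 110.6 TPM in homo. All its homo values lay above all hete values (0.37, SE 0.09, limma-trend adjusted p = 0.600). It was the 1 gene of the 18 without overlap, beside 2.58% of all tested genes without overlap and with homo higher. Nab2, a co-regulator of Egr2, had -0.20 (SE 0.09), the histone deacetylase Hdac2 0.10 (SE 0.06) and Nfatc4 0.11 (SE 0.08). Of 11 genes of immature and repair Schwann cells, 9 were tested, 5 with a value above 0 and 4 below (median 0.05). These include Gap43, a growth protein also made by neurons (0.30, SE 0.14), Jun, which drives the repair state (-0.17, SE 0.11), Id4 (-0.10, SE 0.12) and Mki67 (0.10, SE 0.12).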

How the data were processed

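Polyadenylated RNA of the basilar membrane was sequenced from 8 libraries, grouped by sample title. The authors deposited TPM per gene and library, rounded to 2 decimals and summing to 1000000 within 1 in each library. Per the submitters' processing notes, fastp, HISAT2, StringTie, RSEM, DESeq2 and the build GRCm39 are listed, but no version or role is stated. TPM are not counts, so no count test was run and depth is unknown. Genes whose mean reached 1 TPM were fitted as log2(TPM + 1) with limma 3.58.1 in R 4.3.3 (limma-trend, robust eBayes, genotype as the only term), and p-values were adjusted over all genes tested by Benjamini-Hochberg. Fold changes on this scale understate those of low genes. The members and gene lists were chosen with earlier results of these data known, and so was the rule for names: all members, up to 4 genes with the smallest p for each of the 3 pathway lists, and cell type markers as sums with those at 0. Mobp and other oligodendrocyte markers, the supporting cell genes and the immediate early genes were named outside it, after their values were seen. A gene under that rule is left out of the text. Alternatives were other scalings, filters and pseudocounts, eBayes without the robust option, a replicate block, each library left out, and, added after the data were seen, neuron marker level as a covariate. Values of ratios and summed levels are descriptions. The deposited enrichment and splicing tables were not used. Plots used matplotlib 3.10.9 (Python 3.11.15).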

Additional observations from a re-analysis of the deposited data

Results flagged for a closer look

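Values of 4 libraries were checked within each genotype for 1 that stood far from the other 3, in 74 sets: the 28 members and 9 marker sums in each group. Chance alone flags about 1 in 20 sets, or 3.7 of 74, and 4 were found, all in hete. Hete replicate 2 was alone at the top for Fabp7, at 272.82 TPM, and for Lgi4, at 10.2 TPM, as well as for the summed oligodendrocyte markers, at 29.14 TPM. Hete replicate 1 was alone at the bottom for Ncam1, at 8.53 TPM.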

How the results depend on the processing

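No member passed the test under any of the 16 alternatives run, nor did any gene of the other pathway lists. Over all genes, 2 passed as reported, 1 with no filter on low values, 1 with the replicate block and 1 to 5 when a library was left out. The members above 0 numbered 12 to 24 when a library was left out and their median ran from -0.03 to 0.22. Replicate numbers did not pair the libraries: deviations of same-numbered libraries correlated at -0.08 to 0.05, and no library correlated best with its own number. Log2 fold changes that changed sign when a library was left out ran from -0.063 to 0.46 for Mbp, -0.17 to 0.21 for Pmp22, -0.015 to 0.095 for Mal, -0.10 to 0.37 for Cldn19, -0.071 to 0.28 for Prx, -0.16 to 0.053 for Drp2, -0.021 to 0.19 for Ncmap, -0.21 to 0.25 for Gldn, -0.070 to 0.22 for Fa2h, -0.063 to 0.094 for Sox10, -0.045 to 0.11 for Erbb2, -0.021 to 0.28 for Dhh, -0.21 to 0.17 for L1cam, -0.064 to 0.15 for Ncam1 and -0.13 to 0.058 for Fabp7. Sox10 was at -0.0021 with quantile normalization. With the neuron marker level as a covariate, signs changed for Pmp22 (-0.076), Cldn19 (-0.046), Prx (-0.048), Gldn (-0.091), Sox10 (-0.0051), Dhh (-0.0026), L1cam (-0.093); the cause was not tested. The number of members lowest in hete replicate 1 or homo replicate 3 was 21 of 27 with quantile normalization and 16 of 21 with at least 5 TPM in 4 libraries. The unknown depth limits what can be said of genes near 1 TPM, and 4 libraries a group with this spread leave wide intervals for the sheath genes.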

Other observations

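With the mean log2(TPM + 1) of the 13 neuron markers as a covariate, an alternative added after the data were seen, the standard error became smaller for 22 of the 27 members. No such count was made over all tested genes. The neuron and sheath sums were lowest in the same library of each group, so smaller errors for sheath genes are no independent result. The standard error fell from 0.38 to 0.20 for Mbp, from 0.24 to 0.10 for Cnp, from 0.23 to 0.11 for Prx and from 0.30 to 0.17 for Cldn19. Prx then stood at -0.05 (95% interval -0.29 to 0.19) and Cnp at 0.09 (95% interval -0.14 to 0.32). Egr2 had the largest value of the 27 members in this fit as well, at 0.47 (SE 0.13, 95% interval 0.17 to 0.76; limma-trend adjusted p = 0.768), ahead of Foxd3 at 0.24 (SE 0.15), Pou3f1 at 0.22 (SE 0.13) and Ednrb at 0.19 (SE 0.09). Of the 27 members, 16 were above 0 in this fit. The standard error did not fall for S100b, Sox10, Erbb2, Mal and Cdh19.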
